A study of Mus musculus with 12 samples.

Results

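The clustered protocadherin genes are the 57 protein-coding genes of mouse chromosome 18 whose symbols start with Pcdha, Pcdhb or Pcdhg, of 21938 protein-coding genes examined. They were chosen by symbol alone, from the GENCODE annotation on mm10, and no measured value entered the choice. The α cluster has 14 of them, the β cluster 22 and the γ cluster 21. Read on mm10, the genes of the α cluster run from 36930184 to 37187661, those of the β cluster from 37264938 to 37524479, and those of the γ cluster from 37661793 to 37841873. All lie on the forward strand, within 912 kb. A pair of neighbouring genes shares the symbol Pcdha11 in this annotation, and both were kept, with 5′ ends at 37005203 (the upstream gene) and 37010712 (the downstream gene).

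Clustered protocadherins are cell-surface cadherins that give neurons an individual surface identity, through homophilic binding of matching isoforms. Every α and γ gene supplies a large variable first exon with a promoter of its own, which is spliced to constant exons shared by the whole cluster, whereas a β gene is a single large coding exon. In neurons most promoters are chosen at random in each cell, with CTCF and cohesin looping a promoter to a distant enhancer, while the C-type genes at the 3′ ends of the α and γ clusters are used more widely. DNA methylation of the promoters is known to go with silence of the gene, and the locus is a known site of broad methylation in tumours.

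The series measured open chromatin by ATAC-seq, in which a transposase cuts accessible DNA, in 12 libraries from mouse tumour lines, 3 for each of 4 groups. B16F10 is a melanoma line and was left untreated or given 0.1 µM DAC (decitabine), a nucleoside that depletes the DNA methyltransferases. 4T1 is a mammary carcinoma line and was left untreated or given 1 µM DAC. Treatment lasted 48 h in both, and dead cells were removed before nuclei were made. The lines thus differ in dose as well as in origin, and these cannot be told apart. Whether replicates were separate cultures is not said in the labels, so each p-value rests on library-to-library spread that could be purely technical.

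The data are lists of peaks, stretches in which reads exceed the local background, called by the authors in each library. A gene counts as having a start peak in a library when a peak overlaps any of its transcript starts or the 1000 bp on either side. The members have 86 distinct starts. A gene is said to be called in DAC libraries alone when all 3 DAC libraries and 0 of the 3 controls of a line have such a peak, and in control libraries alone for the reverse. The strength of a peak is given as its percentile, by −log10 q-value, among all peaks of its own library, so that 100 would be the strongest. In bulk cells a site open in fewer cells and a site less open in each cell cannot be told apart.

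The B16F10 lists held 49622 to 58468 peaks and the 4T1 lists 89780 to 118603. In 4T1 the arms did not overlap in this number, with 89780, 94229 and 92089 peaks in the controls and 110634, 118603 and 108083 after DAC. The background pileup behind the peaks, a stand-in for depth that was recovered from the deposited values, was 4.01 to 4.43 in 4T1 controls and 5.28 to 6.5 after DAC, against 1.6 to 2 in all B16F10 libraries. The part of depth in the 4T1 results was not tested directly, and the values with equal numbers of peaks stand beside them below. Marker genes went with the labelled lines: start peaks stood in all 6 B16F10 libraries at 7 of 10 melanocyte markers, though not at Tyr, Kit or Ednrb, and in all 6 4T1 libraries at 9 of 10 mammary epithelial markers, though not at Krt5. Among 10 neuron markers, 6 had a start peak in each 4T1 control and 8 to 9 in each 4T1 DAC library, Nefl being called in DAC libraries alone. Among the melanocyte markers, 2 had one in each 4T1 control and 5 in each 4T1 DAC library, where Sox10, Pax3 and Kit were called in DAC libraries alone. The part of these shifts in the results was not tested.

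From the first to the last member the locus held 11 to 13 peaks in each 4T1 control and 68 to 83 after DAC. Start peaks were found at 0, 0 and 0 of the 14 α genes in the 3 controls and at 9, 9 and 7 after DAC. The γ genes had 2, 2 and 2 start peaks of 21 in the controls and 13, 16 and 12 after DAC. The β genes had 5, 4 and 4 of 22 in the controls and 4, 7 and 4 after DAC. The arms were thus apart in the α and γ clusters and overlapped in the β cluster. Only Pcdhb1, Pcdhb16, Pcdhb21 and Pcdhgc3 (7.02% of members) had a start peak in all 3 controls, against 60.4% of all genes, while 19 members (33.3%) had one in all 3 DAC libraries, against 64.6%. Over all 57 members the count was 6.33 ± 0.577 in controls and 27 ± 4.58 after DAC (SD, n = 3).

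B16F10 cells showed another distribution, with most of the members' start peaks at β genes in both arms. There the β genes had 12, 13 and 13 start peaks in the controls and 9, 14 and 13 after DAC. Per library this was 40.9% to 63.6% of the β genes. The share of all protein-coding genes, 54.5% to 56.1%, lay inside that range, so the β cluster was not more open than genes at large. The α genes had 2, 1 and 1 in the controls and 3, 2 and 1 after DAC, and the γ genes 2, 2 and 4 and then 3, 6 and 3. The arms overlapped in all 3 clusters, and over all members the count was 16.7 ± 1.15 in controls and 18 ± 3.61 after DAC (SD, n = 3).

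**Figure D1:**
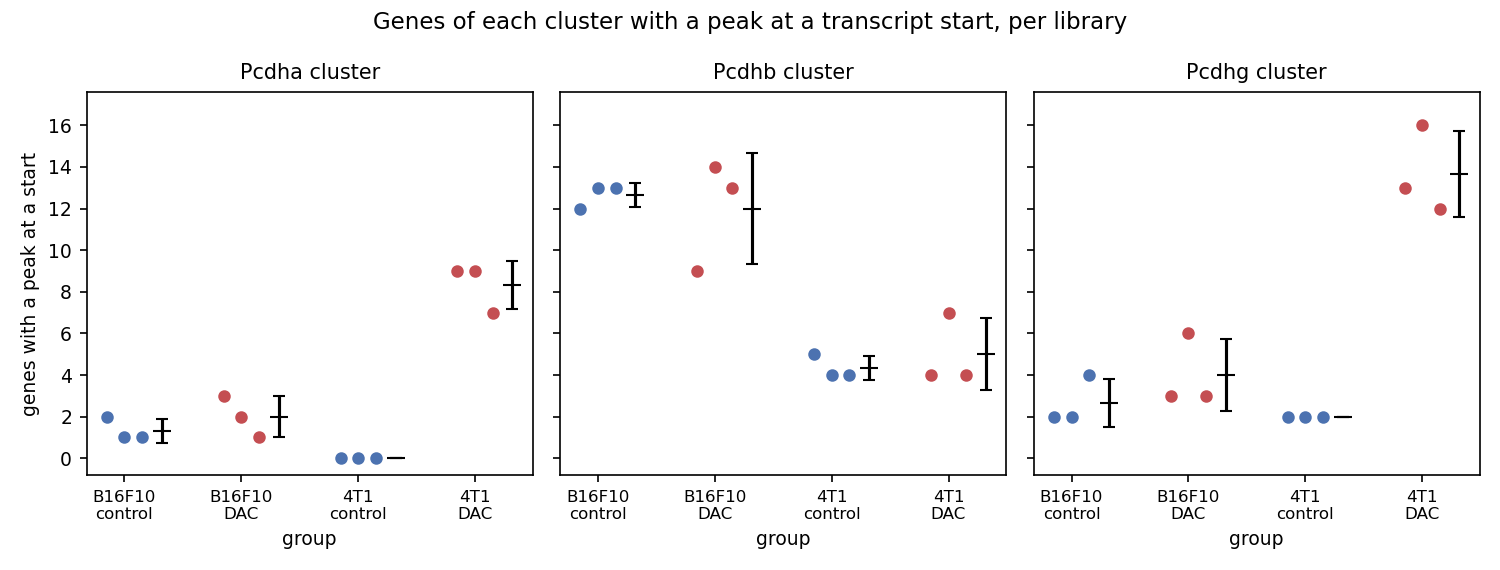
Number of genes of each cluster with a start peak (y axis) in each library, 1 point per library, with the mean and SD of the 3 libraries beside the points, by line and treatment (x axis; blue control, red DAC). In 4T1 the DAC points stand at 7 to 9 in α and 12 to 16 in γ, above all controls, and overlap the controls in β.

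**Figure D2:**
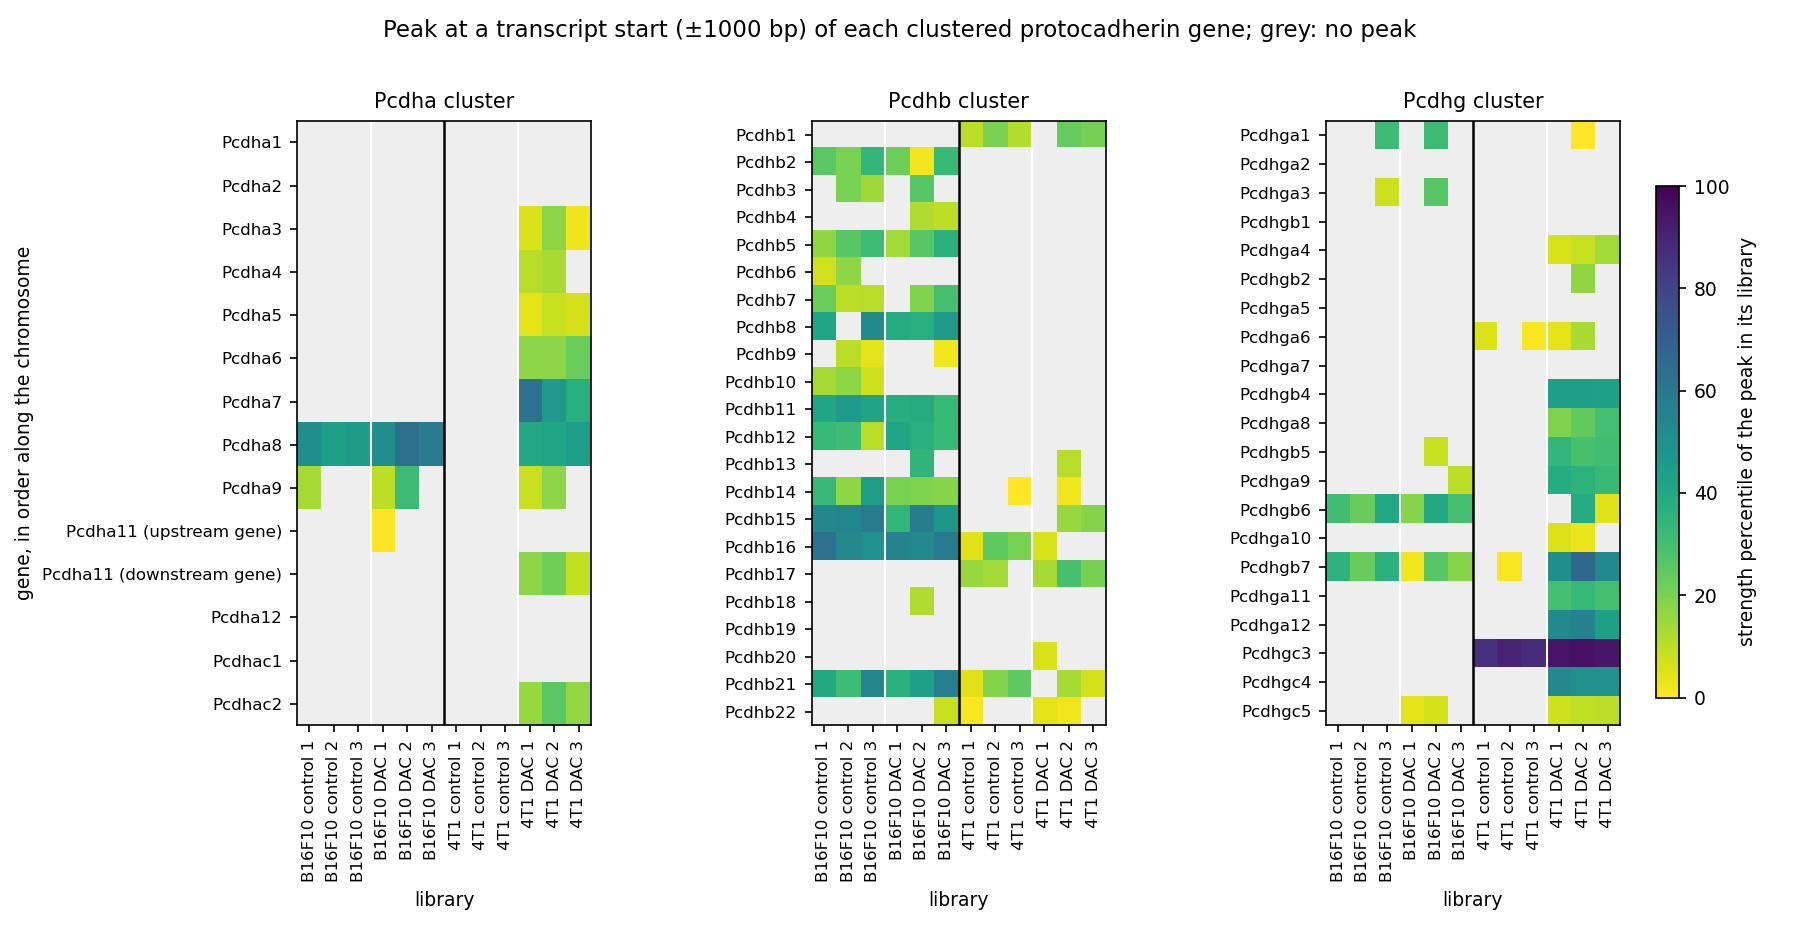
Start peaks of the 57 clustered protocadherin genes (rows, in chromosome order by cluster) in each of the 12 libraries (columns, by line and treatment). Grey cells have no peak; a coloured cell is a peak within 1000 bp of a transcript start, and the shade is its strength percentile within that library; the α and γ blocks of 4T1 fill after DAC, while the B16F10 peaks lie mostly in the β block in both arms.

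By the rule of all against none, 16 of the 57 members (28.1%) were called in 4T1 DAC libraries alone, against 4.42% of all protein-coding genes. They were 7 of 14 α genes (50%), 9 of 21 γ genes (42.9%) and 0 of 22 β genes. No member was called in 4T1 control libraries alone, against 0.36% of all genes, and 23 members (40.4%) had no start peak in any 4T1 library, against 29.6%. The 16 members held 16 separate peak regions, so that no peak was counted for more than one of them. Of the 48 members with no start peak in any 4T1 control, 16 (33.3%) were called, against 11.8% of all genes with no such peak; for the β cluster this was 0 of 16. With each 4T1 library cut to its 89780 strongest peaks, 10 members (17.5%) and 2.39% of all genes were called in DAC libraries alone. These were Pcdha7, Pcdha8, 8 γ genes and 0 β genes, and 9 of them were among the 16. In 4T1 controls alone this setting called Pcdhb16 and Pcdhb21 (3.51% of members), against 0.848% of all genes. With only peaks of at least 5-fold enrichment the count was 4 (7.02%), against 1.18% of all genes, and with a −log10 q-value of at least 5 it was 12 (21.1%), against 3.22%.

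In B16F10 the call in DAC libraries alone was made at 0 of 57 members and at 0.283% of all genes. One member, Pcdhb10, was called in control libraries alone, at percentiles of 13.5, 17.1 and 7.31, against 0.0866% of all genes. Those peaks were among the weak ones of their libraries. They were also not at the same place. In control replicates 1 and 2 the peak began at 37412049, with its summit 769 and 782 bp past the start. In control replicate 3 it ran from 37411665 to 37412058, with its summit 8 bp past the start, so that the peaks overlapped only at their edges. All 3 B16F10 controls had a start peak at 13 members (22.8%), against 53.4% of all genes, and all 3 DAC libraries at 12 (21.1%), against 53.7%. A start peak stood in all 6 B16F10 libraries at 11 members (19.3%), against 52.7% of all genes, and at none of the 6 libraries at 29 members (50.9%), against 41.3%. The 11 were Pcdha8, 8 β genes (Pcdhb2, Pcdhb5, Pcdhb11, Pcdhb12, Pcdhb14, Pcdhb15, Pcdhb16 and Pcdhb21), Pcdhgb6 and Pcdhgb7.

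Among the α genes called in 4T1 DAC libraries alone, the strongest start peaks were at Pcdha7 and Pcdha8, which both encode variable isoforms from neighbouring first exons. Pcdha7 had percentiles of 62.8, 45.9 and 37 in DAC replicates 1 to 3, and fold enrichments over the local background of 9.73, 6 and 5.42. Pcdha8 had percentiles of 39.7, 41.2 and 44.3 there. Neither had a start peak in any 4T1 control.

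Pcdha8 was also the only α gene called in all 6 B16F10 libraries. Its percentiles were 50.1, 43.2 and 45.3 in B16F10 controls and 51.1, 63.2 and 58.1 after DAC. It was therefore open in untreated B16F10 and without a peak in untreated 4T1, and had peaks of middle strength in both lines after DAC.

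The other α genes called in 4T1 DAC libraries alone had weaker peaks. Pcdha6 lay at percentiles of 17.4, 17.4 and 22.8, the downstream Pcdha11 gene at 17.4, 21.6 and 8.99, and Pcdhac2, a C-type gene, at 15.3, 25.6 and 16.2. Pcdha3 lay at 6.14, 17.4 and 2.41 and Pcdha5 at 4.03, 8.39 and 6.63. The −log10 q-values of these peaks ran from 2.64 (Pcdha3, DAC replicate 3) to 8.82 (Pcdhac2, DAC replicate 2). The lists of 4T1 DAC replicates 1 to 3 ended at 1.31, 1.31 and 1.3. Of these 5 genes none was called in DAC libraries alone when equal numbers of peaks were kept. With a −log10 q-value of at least 5, Pcdha6 and Pcdhac2 kept the call, and Pcdha3, Pcdha5 and the downstream Pcdha11 gene lost it. The other C-type gene of the cluster, Pcdhac1, had no start peak in any of the 12 libraries, nor had Pcdha1, Pcdha2 and Pcdha12.

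The γ genes called in 4T1 DAC libraries alone included both strong and weak peaks. Pcdhgc4, a C-type gene, lay at percentiles of 52.8, 49.3 and 49.5, with fold enrichments of 7.33, 6.22 and 6.84. Pcdhga12 lay at 52, 56.2 and 43.1, and Pcdhgb4 at 44, 43.8 and 43.5. These 3 genes thus had peaks near the middle of the list in each DAC library and no peak in any control.

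Of the other γ genes called there, Pcdhga9 lay at percentiles of 38, 35.4 and 32.3, Pcdhgb5 at 33.8, 29.1 and 30.6, and Pcdhga11 at 30, 32.9 and 29.6. Pcdhga8 lay at 19.5, 24.6 and 29.9. The weakest were Pcdhga4, at 6.14, 8.39 and 13.8, and the C-type gene Pcdhgc5, at 7.19, 9.59 and 9.9. The γ genes called thus ranged from near the foot to above the middle of the lists.

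Pcdhgb7 fell outside the call by a single weak control peak. It lay at percentiles of 50.2, 66.5 and 52 in 4T1 DAC libraries and at 1 in control replicate 2, with no start peak in the other two controls. In B16F10 it had peaks in all 6 libraries, at 35.3, 23.2 and 36 in controls and 2.29, 25.8 and 18.2 after DAC. Its fold enrichments were 5.66, 8.3 and 6.23 in 4T1 DAC libraries and 7.55, 6.01 and 7.5 in B16F10 controls, so that by this measure the groups overlapped.

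Pcdhgc3, the third C-type gene of the γ cluster, was the only member with a start peak in all 6 4T1 libraries, where 59.3% of all genes had one. Its percentiles were 86.2, 89.9 and 87.5 in controls and 94.4, 95.1 and 93.9 after DAC, with fold enrichments of 11.8, 12.7 and 11.9 and then 13.8, 14.1 and 13.6. These were the strongest start peaks of any member in any library. The merged region, 37805995 to 37809028, also overlaps the antisense gene BC037039. Pcdhgc3 had no start peak in any B16F10 library.

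The β genes went the other way between the lines. In untreated cells, 9 members were called in B16F10 alone (15.8%), against 2.01% of all genes, and 7 of these were β genes: Pcdhb2, Pcdhb5, Pcdhb7, Pcdhb10, Pcdhb11, Pcdhb12 and Pcdhb15. The other two were Pcdha8 and Pcdhgb6. Only 2 members were called in untreated 4T1 alone (3.51%), Pcdhb1 and Pcdhgc3, against 7.93% of all genes. Among DAC libraries, 5 members, all of them β genes, were called in B16F10 alone (8.77%), against 1.22% of all genes. In 4T1 alone there were 14 (24.6%), of which 6 were α genes, 7 γ genes and 1 a β gene, against 10.5%.

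In B16F10 the strongest β start peaks were at Pcdhb16 and Pcdhb15. Pcdhb16 lay at percentiles of 62.3, 53 and 49.3 in controls and 55.3, 52.5 and 59.3 after DAC. Pcdhb15 lay at 53.2, 54 and 58.3 and then at 33.7, 57.8 and 47, and Pcdhb11 at 41.2, 45.7 and 42.2 and then 37.8, 38.4 and 32.7. At Pcdhb16 and Pcdhb15 the arms overlapped, while at Pcdhb11 each DAC library lay below each control. Percentiles from lists of unequal length show no change by themselves. Over all β start peaks the median percentile was 31.2 in B16F10 controls (38 peaks) and 33.2 after DAC (36 peaks).

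In 4T1 the few β start peaks were weak, and no β gene was called in either arm alone. Pcdhb1, which stands apart from the other β genes at the 5′ end of its cluster, lay at percentiles of 10.5, 20.2 and 11.6 in controls and at 23.6 and 20.7 in DAC replicates 2 and 3, with none in DAC replicate 1. Pcdhb16 had peaks in all 3 controls (4.47, 24.7 and 20.2) and only in DAC replicate 1 (6.14). Pcdhb21 had peaks in all 3 controls (4.47, 18.7 and 24.8) and in DAC replicates 2 and 3 (13 and 6.63). Pcdhb17 was the only β gene with a start peak in all 3 4T1 DAC libraries, and 2 of the 3 controls had it as well. Some β genes had start peaks in part of the DAC libraries and in no control. These were Pcdhb15 (15.2 and 18.4 in DAC replicates 2 and 3), Pcdhb13 (10.7 in DAC replicate 2) and Pcdhb20 (6.14 in DAC replicate 1).

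No member had a start peak in all 12 libraries, where 50.3% of all genes had one. There was none in any library at 9 members (15.8%), against 27.3% of all genes: Pcdha1, Pcdha2, Pcdha12, Pcdhac1, Pcdhb19, Pcdhga2, Pcdhgb1, Pcdhga5 and Pcdhga7. The level of RNA of these genes was not measured in the libraries used here.

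Counting every peak between the ends of each cluster, and not only those at starts, added the β cluster to those with more peaks in DAC-treated 4T1 cells. The α span held 0, 0 and 0 peaks in 4T1 controls and 23, 21 and 17 after DAC. The γ span held 3, 4 and 5 and then 28, 31 and 23, and the β span 6, 5 and 5 and then 18, 22 and 18. In all 3 spans each DAC library stood above each control. Among tiles of the same length over the genome, the share with every 4T1 DAC library above every control was 41.3% for the α length, 41.5% for the β length and 34.5% for the γ length, so that the order alone was common in this line. A mean gain as large as that of the span was reached by 0.199% of tiles for α (20.3 peaks), 0.658% for β (14 peaks) and 0.0397% for γ (23.3 peaks).

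In B16F10 the spans differed little between the arms. The α span held 4, 3 and 3 peaks in controls and 6, 5 and 4 after DAC. The β span held 14, 15 and 15 and then 11, 17 and 14, and the γ span 6, 5 and 7 and then 8, 9 and 7. The arms overlapped or met in each span. For comparison, 6.57%, 6.73% and 5.42% of tiles of the α, β and γ lengths had every B16F10 DAC library above every control.

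An exact two-sided permutation test over libraries, within lines, compared the mean gain of both lines. It was 11 peaks in the α span (p = 0.01, adjusted over the 3 spans 0.015) and 12.7 in the γ span (exact p = 0.01, adjusted 0.015). In the β span it was 6.67 (exact p = 0.07, adjusted 0.07), which did not pass 0.05. Within 4T1 alone the gains of 20.3, 14 and 23.3 peaks each had an exact p of 0.1, the smallest that 3 against 3 libraries allow. Within B16F10 they were 1.67 (exact p = 0.2), −0.667 (exact p = 0.8) and 2 (exact p = 0.2). Keeping equal numbers of peaks in each line, the 4T1 gains were 7.33, 5 and 12.3 peaks, and the γ span no longer passed over both lines (6.5, exact adjusted p = 0.0525).

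The gains of the clusters were also set against each other, in tests chosen after the values had been seen. The γ span gained 6 peaks more than the β span on average over both lines (exact p = 0.015, adjusted 0.045). The β span gained 4.33 fewer than the α span (−4.33, exact p = 0.035, adjusted 0.0525), and the γ span 1.67 more than the α span (exact p = 0.155, adjusted 0.155). Without B16F10 control replicate 2 or B16F10 DAC replicate 1 the first of these no longer passed (exact adjusted p = 0.0675 and 0.075).

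**Figure D3:**
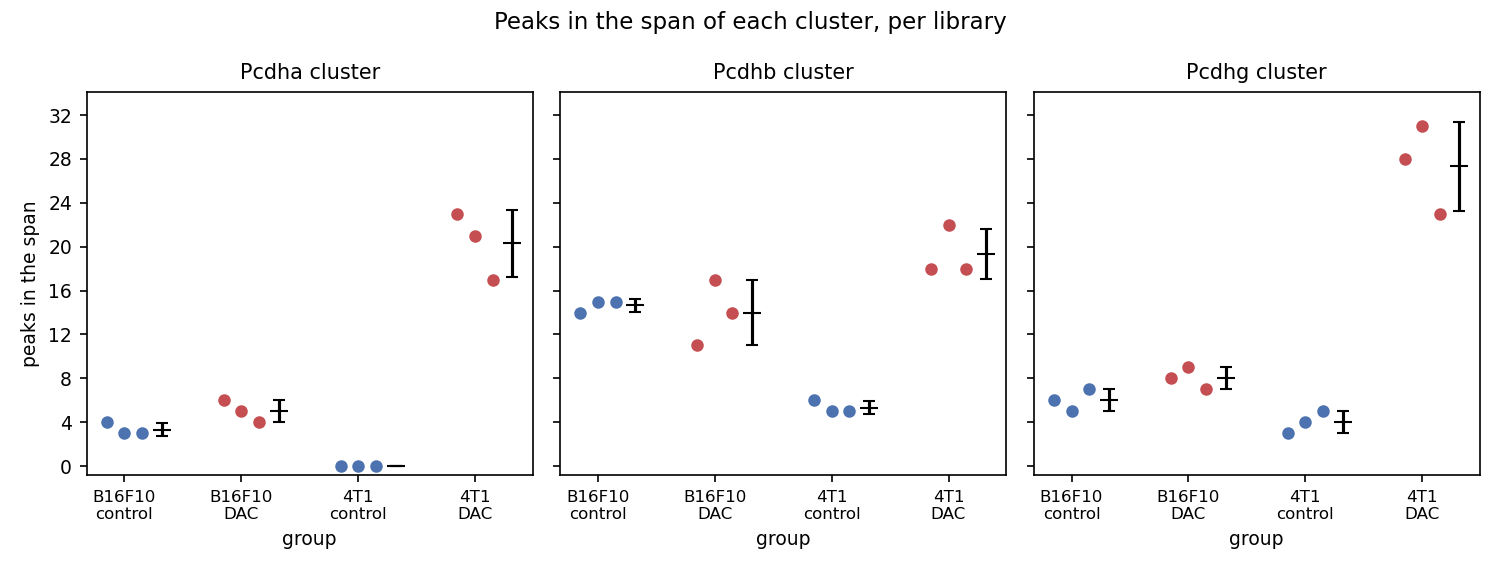
Number of peaks inside the α, β and γ spans (y axis) in each library, 1 point per library with the group mean, by line and treatment. In 4T1 the DAC points of all 3 spans lie above the controls, at 17 to 31 against 0 to 6; in B16F10 the points of both arms lie together.

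The peaks that the β cluster gained in 4T1 lay elsewhere than its start peaks. In each library, the summit of each peak, its highest point, was placed by its distance from the nearest 5′ end of a member, and the 3 libraries of a group were then added up, so that one site can count up to 3 times. After DAC in 4T1, 16 of 58 β summits (27.6%) lay within 1000 bp of a 5′ end and 32 (55.2%) lay from 1000 to 4000 bp past it. In 4T1 controls these numbers were 13 of 16 (81.2%) and 3 (18.8%). In B16F10 controls 38 of 44 β summits (86.4%) lay within 1000 bp, and the 6 others were in exons, 3 in that of Pcdhb10 and 3 in that of Pcdhb14. The Pcdhb10 exon region was called in 3 of 3 controls and 1 of 3 DAC libraries in B16F10, and in 0 of 3 and 3 of 3 in 4T1. The median distance was 2081 bp downstream for β summits in 4T1 DAC libraries, 41 bp in 4T1 controls and 125 bp in B16F10 controls.

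In the α and γ clusters the 4T1 DAC summits fell both at starts and further into the first exon. Of 61 α summits, 24 (39.3%) lay within 1000 bp of a 5′ end and 26 (42.6%) from 1000 to 4000 bp past it. Of 82 γ summits these numbers were 44 (53.7%) and 30 (36.6%). The γ summits thus lay nearest to the starts, at a median of 393 bp, against 1151 bp for α.

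**Figure D4:**
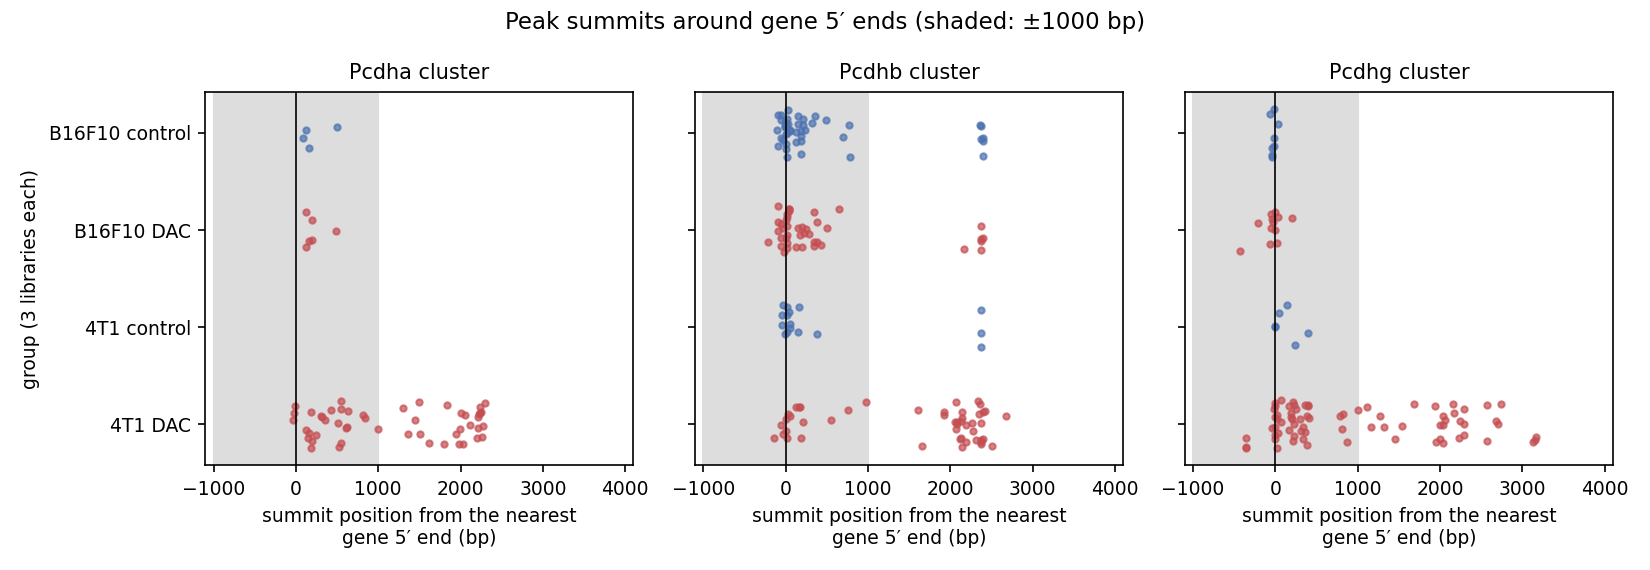
Distance of each peak summit from the nearest 5′ end of a member (x axis, in bp, positive downstream), by cluster (panels) and by line and treatment, with the 3 libraries of a group added up. Summits of the β cluster stand at the 5′ ends in B16F10, at a median of 125 bp in controls, and mostly near 2081 bp in 4T1 DAC libraries.

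Merging overlapping peaks of the 6 libraries of a line gave 91 regions inside the spans in 4T1, of which 39 were called in DAC libraries alone and 0 in control libraries alone. Over the genome 12% of merged 4T1 regions were called in DAC libraries alone and 3.57% in control libraries alone. By cluster the DAC regions were 14 of 27 in α, 9 of 28 in β and 16 of 36 in γ. In B16F10 there were 40 regions in the spans, 1 called in DAC libraries alone and 1 in control libraries alone, against 2.26% and 0.886% over the genome.

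Of the 14 α regions, 7 lay at starts, 4 in a first exon beyond the window and 3 in introns of Pcdha1 to Pcdha7. The 4 exon regions were in Pcdha1, Pcdha4, Pcdha8 and Pcdha12; the one in Pcdha12, at 37021463 to 37022470, had percentiles of 19.6 to 30.7 across its DAC peaks. Pcdha1 and Pcdha12 thus had a DAC peak inside the exon and none at the start. The 3 intron regions lay upstream of Pcdha8, from 36981489 to 36988822, with 65.7% to 100% of their bases in annotated repeats. They lay at higher percentiles than every 4T1 start peak of an α gene other than those of Pcdha7. The one at 36987112 to 36987755 reached a percentile of 70.1 and stayed at 61.3 or above in every DAC library.

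None of the 9 β regions lay at a start. There were 6 in the exons of Pcdhb3, Pcdhb10, Pcdhb17, Pcdhb18, Pcdhb20 and Pcdhb21, and 3 between genes, each made mostly of repeats. The exon region of Pcdhb3, at 37302881 to 37303252, was the strongest of the 6, with a lowest DAC percentile of 46.8. The region at 37365054 to 37365926, wholly repeat, had percentiles of 71 to 79.4 and a fold enrichment of up to 14.5, above every start peak of a β gene in 4T1.

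In the γ cluster 10 of the 16 regions lay at starts, 5 in a first exon beyond the window (Pcdhgb2, Pcdhgb4, Pcdhga8, Pcdhga11 and Pcdhga12) and 1 in another exon, and 0 were mostly repeat. Among the 10, the region at Pcdhgb6 (37743072 to 37744330) touched the start window only at its edge. Pcdhgb6 had a start peak in 2 of the 3 DAC libraries and was therefore not among the members called. Pcdhgb2 had such a region only inside the exon, at 37691423 to 37692115, where its lowest DAC percentile was 45.8. Counting starts and first exons together, 27 of the 57 members held a region called in 4T1 DAC libraries alone: 10 of 14 α genes, 6 of 22 β genes and 11 of 21 γ genes. In B16F10 this was 0 members. The share of all genes by this wider rule was not computed, so these counts have no value to stand beside. The first exons of the members are large, at a median of 2613 bp.

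The clusters differ in the sequence around their 5′ ends, which the choice of members did not use. CpG dinucleotides, the sites of DNA methylation in mammals, numbered a median of 2.72 per 100 bp within 1000 bp of the 5′ ends of α genes, 2.7 for γ and 1.42 for β, against 3.05 over all protein-coding genes. Over the first exon the medians were 4.6, 3.82 and 2.12. The β cluster, with no member called in 4T1 DAC libraries alone, was thus the poorest in CpG. The merged regions called in 4T1 DAC libraries alone, each shorter than a window, had medians of 5.7 per 100 bp in α, 4.83 in γ and 4.47 in β. The 4T1 regions called neither in one arm alone nor in all 6 libraries had 5.49 in α, 4.91 in γ and 3.04 in β. In α and γ a high density was thus not particular to the regions called in DAC libraries alone.

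Within a cluster CpG density differed little between called and other members. The α genes called in 4T1 DAC libraries alone had a median of 2.85 and the others 2.7; for γ these were 2.75 and 2.65. Pcdhgc3, open in every 4T1 library, had the highest density of all members, at 5.75, and Pcdhac2, a C-type gene called in DAC libraries alone, had 5.1.

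All protein-coding genes were sorted into 5 equal classes by this density, a split chosen after the values had been seen. From the poorest to the richest class, 1.57%, 3.62%, 4.4%, 4.67% and 7.82% of genes were called in 4T1 DAC libraries alone. In the middle class 12 of 30 members (40%) were called, 6 of 13 α genes and 6 of 16 γ genes. In the class next to the poorest 2 of 22 members were called, the γ genes Pcdhga12 and Pcdhgc5, and 0 of 19 β genes. Members thus lay above their class in the α and γ clusters and not in the β cluster. The part of CpG density in this was not tested.

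**Figure D5:**
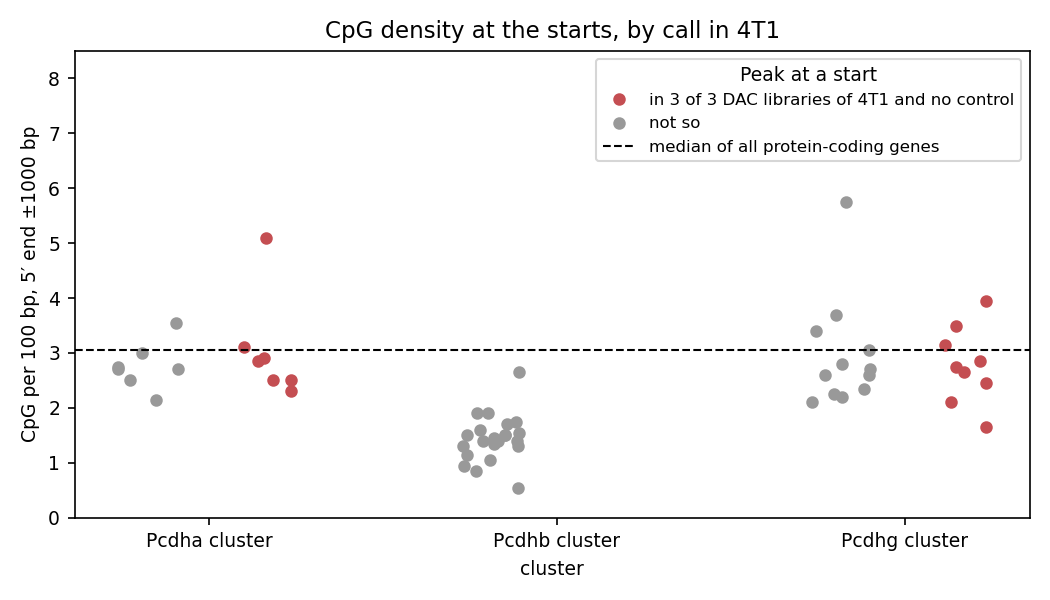
CpG dinucleotides per 100 bp in the window at each member's 5′ end (y axis) by cluster, with members called in 4T1 DAC libraries alone in red and the median of all protein-coding genes, 3.05, as a line. The β genes lie lowest, with a median of 1.42, and none is red; red and grey members overlap in α and γ.

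A consensus of 13 letters for CTCF, named above as looping promoters to an enhancer, was searched by name on both strands in the same windows. A match stood in 6 of 14 α windows (42.9%), in 0 of 22 β windows and in 0 of 21 γ windows, against 1.26% of the windows of all protein-coding genes. The 6 were at Pcdha1, Pcdha4, Pcdha6, Pcdha7, Pcdha8 and Pcdha12, of which Pcdha6, Pcdha7 and Pcdha8 were called in 4T1 DAC libraries alone. Matches were thus as frequent at the α genes called there, 3 of 7, as at the other α genes, 3 of 7. A match describes letters, not binding. Only this consensus was searched, so a window without a match, as in β and γ, can still hold a variant of the site.

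Neighbouring genes and solitary protocadherins were counted in the same way. There were 34 other protein-coding genes within the locus or up to 500 kb from it. Of these, 0 were called in DAC or in control libraries alone in either line. Over all genes these calls were made at 4.42% and 0.36% in 4T1 and at 0.283% and 0.0866% in B16F10. In 4T1, Dnd1, Gm42416, Gm37013, Gm37388 and Slc25a2 had start peaks in only part of the DAC libraries and in no control. E230025N22Rik had them in part of the controls and in no DAC library, and Pcdh12 in every control and only part of the DAC libraries. A start peak stood in all 6 4T1 libraries at 25 of the 34, against 59.3% of all genes. Pcdh1 and Pcdh12 are among these neighbours and also among 12 solitary protocadherins, single genes outside the clusters. Of the 12, 4 were called in 4T1 DAC libraries alone (Pcdh7, Pcdh8, Pcdh15 and Pcdh19), beside 4.42% of all genes, and 0 in B16F10. Of these, Pcdh7 had a start peak in all 6 B16F10 libraries. All 16 listed regulators of the locus, among them Ctcf, Rad21, Smchd1, Dnmt1 and Setdb1, had a start peak in all 12 libraries. Of 10 cytoplasmic partners of the proteins, 9 had one in all 6 B16F10 libraries, Ret having none, and 9 in all 6 4T1 libraries, Cyfip2 being called in only some.

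Members of a cluster resemble each other closely in sequence, and how reads that map to several places were treated is not stated in the labels, so a weak peak at one β gene can hold reads of another. Peak lists also give presence above a limit and no read counts, so at a member without a peak an open site was not detectable at that library's depth.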

How the data were processed

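ATAC-seq peak lists of 12 libraries were used as deposited, 1 per library. Bowtie2, Picard, MACS2 and mm10 are among the names in the submitters' processing notes, with no versions or options. Fold enrichment, a ratio to local background, and the −log10 p-value and −log10 q-value of each peak were computed by the authors; the deposited score is 10 times the −log10 q-value. Every list ended at a q of 0.05. The background pileup of a library was solved from each peak's p-value, read as a Poisson tail, and its fold enrichment. No counting interval can be given.

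Peaks on assembled chromosomes were overlapped (at least 1 bp) with transcript starts of GENCODE M21 ± 1000 bp, with Python 3.11.15, numpy 2.4.6, pandas 2.3.3, pysam 0.24.0 and scipy 1.17.1. CpG, soft-masked repeats and motifs were read from GRCm38, the assembly mm10 names. Code was tested on simulated data. Replicate numbers did not pair the libraries (correlations of same-numbered deviations from −0.0184 to 0.0198). Named were all members called in one arm alone, in all 6 libraries of a line or in all 12, the C-type genes and Pcdhb1, and the strongest of each cluster; others were named after their values were seen. The members and lists were chosen with earlier results of these data known.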

Additional observations from a re-analysis of the deposited data

Results flagged for a closer look

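The gain of peaks in the β span differed between the lines before adjustment over the 3 spans, but not after it. It was 14.7 peaks larger in 4T1 than in B16F10, with 18, 22 and 18 peaks after DAC against 6, 5 and 5 in 4T1 controls, and 11, 17 and 14 against 14, 15 and 15 in B16F10. An exact two-sided permutation test of the difference, relabelling libraries within lines, gave p = 0.04, and 0.1 after adjustment over the 3 spans. The lines also differed in dose and in depth, and these cannot be told apart.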

How the results depend on the processing

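The gains of the α and γ spans over both lines stayed above 0 under every alternative run, and members called in 4T1 DAC libraries alone numbered from 4 to 22. Window choices (500 bp, 2000 bp, the gene's 5′ end alone, the summit alone) gave 15, 22, 16 and 15 members called in 4T1 DAC libraries alone. With a −log10 q-value of at least 5, 0 members were called in B16F10 controls alone, the γ span gained 8.5 (exact adjusted p = 0.075), and the γ span gained 4.67 more than the β span (exact adjusted p = 0.0975). With a fold enrichment of at least 5, 0 members were called in B16F10 controls alone, 4 in 4T1 DAC libraries alone and 1 in untreated 4T1 alone. The γ span then gained 2.67 (exact adjusted p = 0.195), 2.17 more than β (0.24) and −0.167 against α, and its gain in B16F10 reversed to −1.33. With equal numbers of peaks, 10 members were called in 4T1 DAC libraries alone, 2 (both β genes) in 4T1 controls alone and 1 in untreated 4T1 alone, the γ span gained 6.5 (exact adjusted p = 0.0525), and the β span gained −2.83 against α (0.015). By bases covered, β gained −2320 bp against α (exact adjusted p = 0.0375). With 2 of 3 libraries enough, 2 members were called in B16F10 DAC libraries alone, 2 in its controls alone and 4 in untreated 4T1 alone. The causes were not tested.

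The replicate numbers pair nothing that the labels name. With a replicate block the gains were the same 11, 6.67 and 12.7 peaks in the α, β and γ spans, with exact adjusted p of 0.0938, 0.188 and 0.0938, and 6 for γ against β (0.0938), so that no span passed 0.05.

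Leaving out each library in turn gave 0 to 1 members called in B16F10 DAC libraries alone, 1 to 2 in its controls alone, 0 to 1 in 4T1 controls alone and 16 to 19 in 4T1 DAC libraries alone. The β span gained 5.92 to 7.42, and passed only without B16F10 DAC replicate 1 (7.42, exact adjusted p = 0.045). Its B16F10 gain ran from −2.17 to 0.833 and was above 0 only without that library. The α and γ spans passed in all 12 cases. Between spans the range was −5.08 to −3.33 for β against α, 0.917 to 2.17 for γ against α and 5.25 to 6.75 for γ against β, with exact adjusted p of 0.015 to 0.075, 0.045 to 0.295 and 0.015 to 0.075. γ against β no longer passed without B16F10 control replicate 2 or B16F10 DAC replicate 1. β against α passed without B16F10 control replicate 1 (0.03), control replicate 3 (0.045) or DAC replicate 2 (0.015), and γ against α without control replicate 3 (2, exact adjusted p = 0.045). Sites below the authors' limit for calling are not in the peak lists.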

Other observations

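Several regions of the locus outside the member starts were open in untreated cells. They were chosen after their values had been seen. A region at Pcdhgb8, annotated as a polymorphic pseudogene and so not counted as a member, had a peak in all 12 libraries. In B16F10 it ran from 37761298 to 37762388, with percentiles of 82.4 or above in controls and 86.2 or above after DAC. In 4T1 it ran from 37761299 to 37762085, at 62.9 or above and 68.6 or above. It was thus called in both lines, unlike any member.

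In B16F10 all 6 libraries had peaks in introns near the 3′ end of the α cluster, at 37172249 to 37172821 and at 37176556 to 37177166. The only region of the 3 spans called in B16F10 DAC libraries alone lay beside them, at 37178284 to 37178734, with percentiles of 17.7 to 27.2. A wide region at the 3′ end of the γ cluster, 37824017 to 37826902, was also called in all 6 B16F10 libraries, at 72.7 or above in controls. In 4T1 no single region there was called in all 6 libraries. The exon of Pcdhb14 held a region called in all 6 libraries of each line, at 37449752 to 37450129 in B16F10 and 37449331 to 37450111 in 4T1.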
